A study of Mus musculus with 6 samples.

Results

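The genes described here are 10 markers of beige and brown fat: *Ucp1*, *Cidea*, *Elovl3*, *Kcnk3*, *Otop1*, *Cpn2*, *S100b*, *Tmem26*, *Tnfrsf9* and *Tbx1*. They were taken by name, through their Ensembl identifiers, among the 47069 genes counted in each library, and not by a cut-off on these counts. The choice was nevertheless made with earlier results of these data known. The study asked what the transcription factor EGR1 does in white fat, and sequenced RNA from the inguinal subcutaneous white adipose tissue (SC-WAT) of 2-week-old C57BL/6 female mice, 3 *Egr1*+/+ (wild-type) and 3 *Egr1*-/- (null), with 1 library per mouse. In the *Egr1*-/- mice the gene was inactivated in every cell by insertion of *LacZ* together with a frameshift mutation, so the fat cells are not the only cells without EGR1. The mice came from crosses of heterozygous parents, and a littermate pair, which the labels do not identify, spanned the genotypes. The study reports fewer litters than mice, so other mice may share a litter too. The litter of each mouse is not given, so litter and genotype cannot be fully told apart. The labels name no treatment. *Ucp1* and *Cidea* were also picked out by the study from these same libraries, so their values are not evidence independent of that choice.

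Brown and beige adipocytes burn fuel to make heat, and the protein that does so, UCP1, lets protons leak across the inner mitochondrial membrane without making ATP. Brown adipocytes form dedicated depots, whereas beige adipocytes arise inside white depots such as the inguinal pad, which in young mice holds many of them before they recede. Some of the markers carry out the thermogenic work or tune it (*Ucp1*, *Cidea*, *Elovl3*, *Kcnk3*, *Otop1*), while others were proposed as surface or nuclear tags of the beige lineage (*Tmem26*, *Tnfrsf9*, *Tbx1*). S100B is a calcium-binding protein secreted by thermogenic adipocytes and is also abundant in glia.

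The start-site sequences of the markers are given first, because the study asked about a DNA-binding factor. RefSeq promoters (assembly GRCm38.p6, 250 bases before to 50 bases after the start) were matched for 7 of the 10 genes, with 9 entries. *Ucp1* and *Otop1* are shown as markers in which the genotypes did not overlap, and *Tmem26* as a beige tag in which they did. Sequences run 5′ to 3′ along the gene, and capitals mark a match to a searched motif, the cAMP response half-site TGACG in *Ucp1* and the GC box GGGCGG, on either strand, in the other two.
Ucp1, chr8:83290098-83290397, plus strand: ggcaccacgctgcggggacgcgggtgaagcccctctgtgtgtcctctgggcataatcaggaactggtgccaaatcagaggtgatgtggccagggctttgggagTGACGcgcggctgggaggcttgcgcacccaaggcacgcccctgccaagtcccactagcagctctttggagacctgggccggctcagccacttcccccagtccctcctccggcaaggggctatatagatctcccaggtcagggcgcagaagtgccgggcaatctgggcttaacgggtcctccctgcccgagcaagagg
Otop1, chr5:38277154-38277453, plus strand: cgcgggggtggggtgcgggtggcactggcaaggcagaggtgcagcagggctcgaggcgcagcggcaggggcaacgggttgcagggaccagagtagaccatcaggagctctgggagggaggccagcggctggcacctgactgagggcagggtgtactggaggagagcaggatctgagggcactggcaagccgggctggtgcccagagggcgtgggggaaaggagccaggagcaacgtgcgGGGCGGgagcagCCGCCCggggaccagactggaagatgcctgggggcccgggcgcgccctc
Tmem26, chr10:68723496-68723795, plus strand: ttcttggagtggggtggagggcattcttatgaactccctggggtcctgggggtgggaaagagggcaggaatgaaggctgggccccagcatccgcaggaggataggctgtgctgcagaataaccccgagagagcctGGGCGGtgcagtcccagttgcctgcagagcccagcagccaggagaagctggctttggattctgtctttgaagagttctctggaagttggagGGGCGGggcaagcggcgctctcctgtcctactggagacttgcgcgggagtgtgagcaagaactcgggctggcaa

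The letters of the EGR1 core searched for, GCGNGGGCG on either strand, were in none of the 9 member promoters, against 5.55% of 32841 promoters of the same length. That says only that these letters are not in these windows, and not that EGR1 does not bind there. The study itself reported recruitment of EGR1 to the proximal *Ucp1* promoter, by chromatin immunoprecipitation from SC-WAT of 2-week-old wild-type mice. The half-site TGACG lay at -147 to -143 from the start of *Ucp1*, where 20.8% of all promoters held it somewhere. Among the 7 members with a promoter entry, *Tbx1* was the only other one with it. GC boxes lay at -11 to -6 and, on the opposite strand, at 2 to 7 in *Otop1*, and at -115 to -110 and -24 to -19 in *Tmem26*, against 35.7% of all promoters with at least 1. The *Ucp1* window was 64.7% G and C with 15 CpG dinucleotides, that of *Otop1* 71.7% with 18, and that of *Cpn2* 47.7% with 4. The median of all promoters was 52.7% with 7. These are descriptions of letters. The deposited counts hold no measure of binding, and the RefSeq start of *Otop1* lies inside its GENCODE gene span.

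Counts on genes summed to between 29661984 and 42357981 per mouse, and 50.0% to 66.3% of them fell on mitochondrial genes, the highest share in *Egr1*-/- replicate 1. Values below are CPM, counts scaled to a common library size, after TMM normalization, which adjusts libraries for their composition. *Egr1* itself had 353, 241 and 711 counts in *Egr1*+/+ replicates 1 to 3 against 103, 84 and 57 in the *Egr1*-/- replicates, or 11.6 ± 4.39 and 2.55 ± 0.640 CPM (SD, n = 3 each), so every library matched its label. The adipocyte markers *Fabp4* and *Adipoq* were high in both genotypes, at 875 and 586 CPM per kb of exon in *Egr1*+/+ mice. Of 10 classical brown depot genes, *Zic1* and *Myf5*, which mark those depots and their precursors, stayed under the level needed for testing. The other 8 passed it and are given further below. Skeletal muscle markers varied most, with a sum of 12 genes from 264 to 3966 CPM in *Egr1*+/+ and from 138 to 3087 CPM in *Egr1*-/- mice. That list had a median log2 difference of -0.80, with 2 of 12 genes higher, 10 lower and none past an unadjusted p of 0.05 in edgeR or past the adjusted threshold in DESeq2.

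Across the markers, the mice without *Egr1* had more RNA of the heat-producing genes and no separate level of the lineage tags. The log2 fold change of *Egr1*-/- over *Egr1*+/+ was above 0 for all 9 genes that could be tested, with a median of 0.73, while 50.1% of the 17667 genes tested were above 0 with a median of 0.0011. In 6 of the 10 genes (*Ucp1*, *Cidea*, *Elovl3*, *Kcnk3*, *Otop1* and *Cpn2*) every *Egr1*-/- mouse was above every *Egr1*+/+ mouse, or in 5 of the 9 tested genes, against 8.15% of all genes tested. The reverse separation, found in 8.1% of all genes, occurred in no marker. In *S100b*, *Tmem26*, *Tnfrsf9* and *Tbx1* the genotypes overlapped. By edgeR's quasi-likelihood test none of the 9 reached the adjusted threshold of 0.05, which 0.017% of all genes passed as higher, and by limma-voom none did either. At an unadjusted p under 0.05 the edgeR count was 5 of 9, all higher, where 5.06% of all genes were higher and 5.6% lower. DESeq2 placed the same 5 (*Ucp1*, *Cidea*, *Kcnk3*, *Otop1* and *Cpn2*) past its adjusted threshold, where 0.73% of all genes were higher and 1.34% lower. An exact permutation test of 3 mice against 3 cannot give a p below 0.1, and each of the separated genes reached that value. In whole tissue, a change in the number of cells of a type and a change in RNA per cell cannot be told apart.

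**Figure D1:**
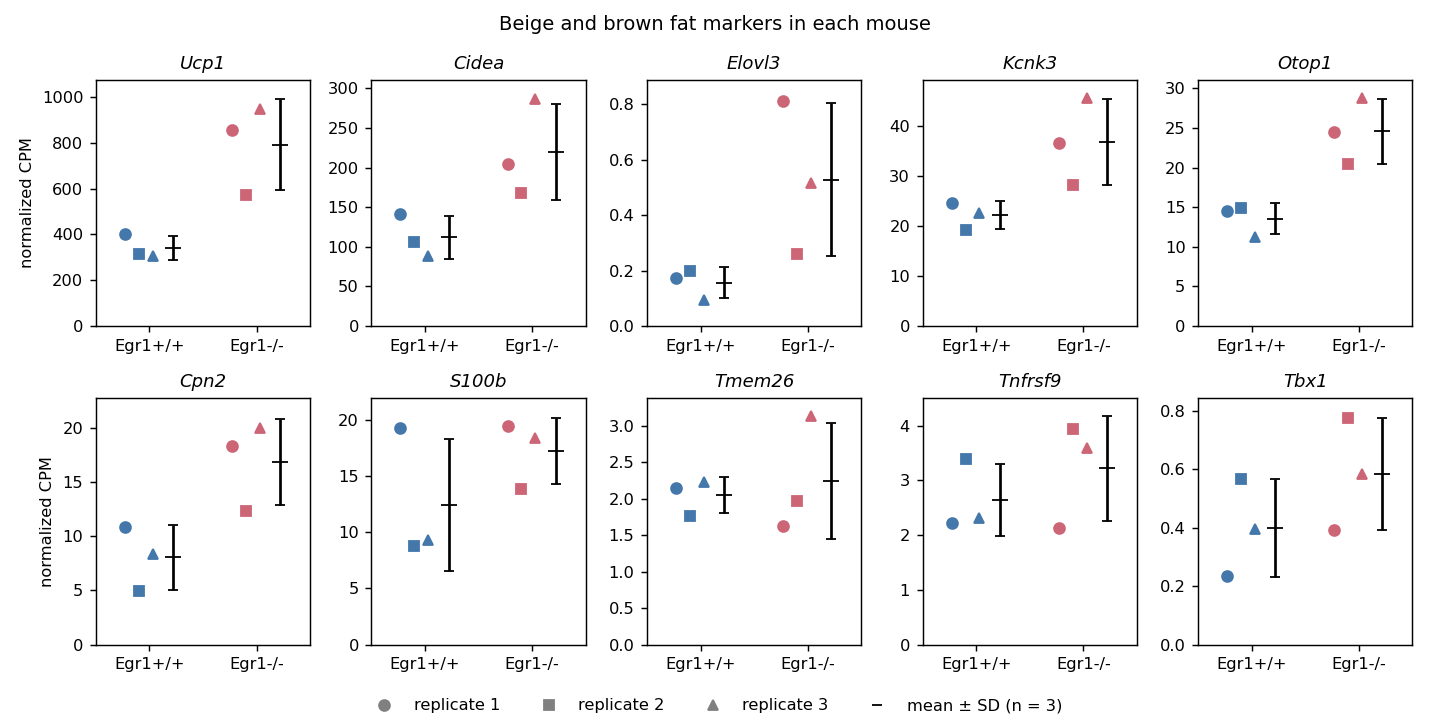
Normalized CPM of the 10 markers in each mouse, each panel with its own axis from 0, with symbols for the replicate and bars for the mean ± SD of 3 mice. The red *Egr1*-/- points lie above all blue *Egr1*+/+ points in *Ucp1*, *Cidea*, *Elovl3*, *Kcnk3*, *Otop1* and *Cpn2*, and overlap with them in the other 4 panels.

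*Ucp1*, the uncoupling protein itself, had 400, 316 and 305 CPM in *Egr1*+/+ replicates 1 to 3 and 858, 571 and 949 CPM in the *Egr1*-/- replicates. The lowest *Egr1*-/- mouse was above the highest *Egr1*+/+ mouse. Means were 341 ± 52.1 and 792 ± 197 CPM (SD, n = 3 each), a log2 fold change of 1.22 (SE 0.207, 95% interval 0.75 to 1.69), with an edgeR adjusted p of 0.151 and a DESeq2 adjusted p of 3.08e-07. *Ucp1* was among the most abundant RNAs of the pad in either genotype, with 0.258% of tested protein-coding genes above it per exon length in *Egr1*+/+ mice and 0.0975% in *Egr1*-/- mice. It is annotated at chr8:83290352-83298452 on the plus strand with 6 exons. Its relatives differed less, *Ucp2* by 0.16 and *Ucp3*, the muscle form, by 0.40 on the log2 scale (edgeR adjusted p = 0.723 and 0.519). Per kb of exon, *Ucp1* had 208 CPM against 12.2 for *Ucp2* and 8.85 for *Ucp3* in *Egr1*+/+ mice.

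*Cidea* encodes a lipid droplet protein that helps droplets transfer their contents and is a classic mark of brown and beige cells. It had 141, 106 and 88.7 CPM in the *Egr1*+/+ mice and 205, 168 and 286 CPM in the *Egr1*-/- mice. The genotypes did not overlap. The log2 fold change was 0.97 (SE 0.227, 95% interval 0.46 to 1.49) with an edgeR adjusted p of 0.202 and a DESeq2 adjusted p of 0.00123. *Cidec*, the relative that builds the single large droplet of white adipocytes, differed by -0.14 (edgeR adjusted p = 0.829). Per kb of exon, *Cidea* stood at 100 and *Cidec* at 145 CPM in *Egr1*+/+ mice, and at 197 and 131 CPM in *Egr1*-/- mice. The means thus changed order, although in *Egr1*+/+ replicate 1 *Cidea* already stood slightly above *Cidec*. *Cidea* lies on chromosome 18 like *Egr1*, at 67343604 to 67367785. The antisense RNA B430212C06Rik overlaps it and held only 15 to 28 counts.

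*Elovl3* encodes an enzyme that lengthens very long chain fatty acids and is strongly induced by cold in brown fat. It was nearly silent here, with 6, 6 and 4 counts in *Egr1*+/+ replicates 1 to 3 against 27, 8 and 16 in the *Egr1*-/- replicates, or 0.175, 0.200 and 0.0928 CPM against 0.810, 0.258 and 0.517 CPM. Although the genotypes did not overlap, *Egr1*-/- replicate 2 was within 2 counts of the *Egr1*+/+ maximum, and the gene fell under the filter on low counts. With a filter of a mean of at least 10 counts, the log2 fold change was 1.78 (SE 0.589) with an edgeR adjusted p of 0.327. Skin glands also express *Elovl3*, and the summed sebaceous gland markers were 92.3 to 108 CPM in *Egr1*+/+ and 98.8 to 139 CPM in *Egr1*-/- mice, with 3 of 6 tested genes higher and 3 lower. The part of that tissue in the *Elovl3* counts was not tested. Of its relatives, *Elovl6*, which lengthens palmitate, was at 26.3 ± 6.66 and 40.5 ± 5.25 CPM. The log2 fold change of *Elovl6* was 0.62 (edgeR adjusted p = 0.269, DESeq2 adjusted p = 0.0495), and *Elovl5* differed by -0.02 (edgeR adjusted p = 0.983). *Elovl4*, with only 9 to 37 counts per mouse, was lower without overlap (log2 fold change -1.25, edgeR adjusted p = 0.35).

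*Kcnk3* encodes the acid-sensitive leak potassium channel TASK-1, which sets the membrane potential of thermogenic adipocytes. It had 24.7, 19.3 and 22.7 CPM in the *Egr1*+/+ mice and 36.6, 28.3 and 45.6 CPM in the *Egr1*-/- mice, without overlap. Its log2 fold change was 0.73 (SE 0.179, 95% interval 0.32 to 1.13) with an edgeR adjusted p of 0.224 and a DESeq2 adjusted p of 0.013. *Kcnk2*, a mechanosensitive channel of the same family, was lower, at 4.63 ± 1.44 and 2.17 ± 0.570 CPM. Its log2 fold change was -1.09 (edgeR adjusted p = 0.227, DESeq2 adjusted p = 0.0234), and *Kcnk6* differed by 0.02 (edgeR adjusted p = 0.986). An RNA on the opposite strand of the *Kcnk3* locus, Gm9899, held 170 to 515 counts and was also higher in every *Egr1*-/- mouse, at 5.66 to 8.51 CPM against 10.7 to 16.6 CPM. The strand setting of the counting is not given in the sources used here, so reads of the overlap cannot be told apart. Mural cells of vessels also express *Kcnk3*, and of their 10 markers 3 were higher and 7 lower, with sums of 580 to 786 and 487 to 691 CPM. The part of mural cells in the *Kcnk3* counts was not tested.

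*Otop1* encodes a proton channel of brown and beige fat, otherwise known from sour taste cells and the inner ear. It had 14.5, 14.9 and 11.3 CPM in the *Egr1*+/+ mice and 24.6, 20.5 and 28.7 CPM in the *Egr1*-/- mice, without overlap. On the log2 scale the fold change was 0.86 (SE 0.162, 95% interval 0.49 to 1.23) with an edgeR adjusted p of 0.16 and a DESeq2 adjusted p of 0.00112. Its relatives *Otop2* and *Otop3* were under the level needed for testing, at 0.0765 and 0.0111 CPM in *Egr1*+/+ mice. No other annotated gene overlaps *Otop1*.

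*Cpn2* encodes the regulatory subunit of carboxypeptidase N, a plasma enzyme made mostly by the liver that trims peptides such as bradykinin, and its RNA has served as a brown fat mark in expression surveys. It had 10.9, 4.93 and 8.37 CPM in the *Egr1*+/+ mice and 18.3, 12.4 and 19.98 CPM in the *Egr1*-/- mice. *Egr1*+/+ replicate 2 was the lowest, and the genotypes did not overlap. The log2 fold change was 1.06 (SE 0.279, 95% interval 0.43 to 1.69) with an edgeR adjusted p of 0.229 and a DESeq2 adjusted p of 0.00758. The catalytic subunit *Cpn1* was under the level needed for testing, at 0.149 and 0.107 CPM. Among 8 liver markers *Alb* alone could be tested, and it was lower, at 8.91 ± 0.787 and 4.79 ± 0.796 CPM (log2 fold change -0.89, edgeR adjusted p = 0.16). The part of liver RNA in the *Cpn2* counts was not tested.

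*S100b* had 19.2, 8.76 and 9.30 CPM in the *Egr1*+/+ mice and 19.4, 13.8 and 18.4 CPM in the *Egr1*-/- mice. *Egr1*+/+ replicate 1 was as high as the *Egr1*-/- mice, and the genotypes overlapped. The log2 fold change was 0.47 (SE 0.287, 95% interval -0.18 to 1.12) with an edgeR adjusted p of 0.617, and without that mouse it was 0.91. *Clstn3*, calsyntenin 3, whose fat-specific form helps S100B leave the cell, was at 5.88 ± 2.24 and 11.4 ± 2.39 CPM without overlap (log2 fold change 0.95, edgeR adjusted p = 0.26, DESeq2 adjusted p = 0.0251). The counts do not separate that form from the others. *S100b* is also a Schwann cell gene, and the other Schwann cell markers went the other way: 10 of 11 tested were lower, 6 of them at an unadjusted p under 0.05 (5.6% of all genes), and their sum was 299 to 407 CPM in *Egr1*+/+ and 198 to 253 CPM in *Egr1*-/- mice. *S100b* was 2.89% to 4.72% of the Schwann sum in *Egr1*+/+ mice and 6.97% to 7.72% in *Egr1*-/- mice, without overlap, with an exact permutation p of 0.1, a ratio chosen after the values were seen. Because that sum was itself lower in every *Egr1*-/- mouse, the ratio would rise for an unchanged gene too. The share of all genes separated over the Schwann sum was not computed, so the separation does not set *S100b* apart. *S100b* also shares its locus with *Dip2a* on the other strand, which had 792 to 1233 counts and was higher in every *Egr1*-/- mouse, at 25.7 to 26.9 CPM against 28.2 to 37.0 CPM, and reads of the overlap cannot be told apart here either.

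The lineage tags were low and overlapped. *Tmem26*, a transmembrane protein of unsettled function, had 2.15, 1.76 and 2.23 CPM in the *Egr1*+/+ mice and 1.62, 1.97 and 3.14 CPM in the *Egr1*-/- mice. Its log2 fold change of 0.13 (SE 0.291, 95% interval -0.53 to 0.78, edgeR adjusted p = 0.912) was -0.19 without *Egr1*-/- replicate 3 and -0.0011 with libraries scaled by total counts. *Tnfrsf9*, the costimulatory receptor CD137 of activated T cells, had 2.21, 3.40 and 2.32 CPM against 2.13, 3.94 and 3.59 CPM (log2 fold change 0.29, SE 0.288, 95% interval -0.36 to 0.94, edgeR adjusted p = 0.783). The T lymphocyte markers also varied, and their part in *Tnfrsf9* was not tested. Their sum was 112 to 124 CPM in *Egr1*+/+ mice and 73.9 to 222 CPM in *Egr1*-/- mice, and *Tnfrsf9* was 1.88% to 3.01% of that sum in one genotype and 1.78% to 2.89% in the other. *Tnfsf9*, the ligand, was under the level needed for testing. *Camta1* overlaps *Tnfrsf9* on the other strand and held 159 to 190 counts, against 71 to 122 for *Tnfrsf9*. Reads of that overlap cannot be told apart here. *Tbx1*, a T-box transcription factor, had 8, 17 and 17 counts with *Egr1* intact and 13, 24 and 18 without it (log2 fold change 0.55, SE 0.481, 95% interval -0.53 to 1.64, edgeR adjusted p = 0.744). For these 3 genes the intervals reach from a fall to a clear increase, so a difference of the size seen in *Otop1* is outside the interval for *Tmem26* but inside those for *Tnfrsf9* and *Tbx1*.

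**Figure D2:**
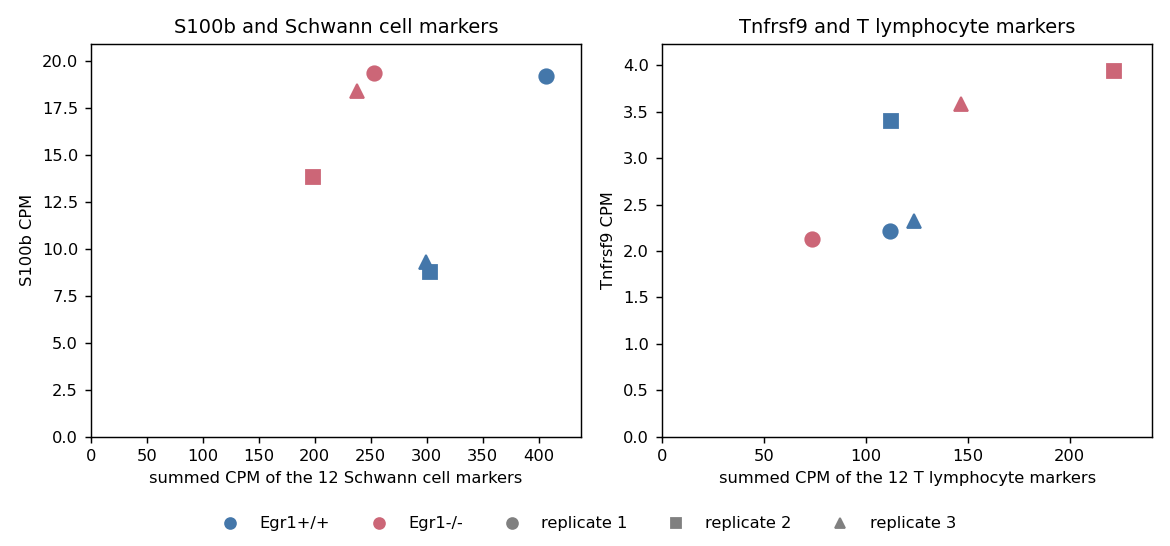
Left, *S100b* CPM against the summed CPM of 12 Schwann cell markers, and right, *Tnfrsf9* CPM against the summed CPM of 12 T lymphocyte markers, with 1 point per mouse and axes from 0. The *Egr1*-/- mice lie left of the *Egr1*+/+ mice in the Schwann panel, with sums of at most 253 against at least 299, while their T lymphocyte sums spread from 73.9 to 222 around the *Egr1*+/+ range.

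**Figure D3:**
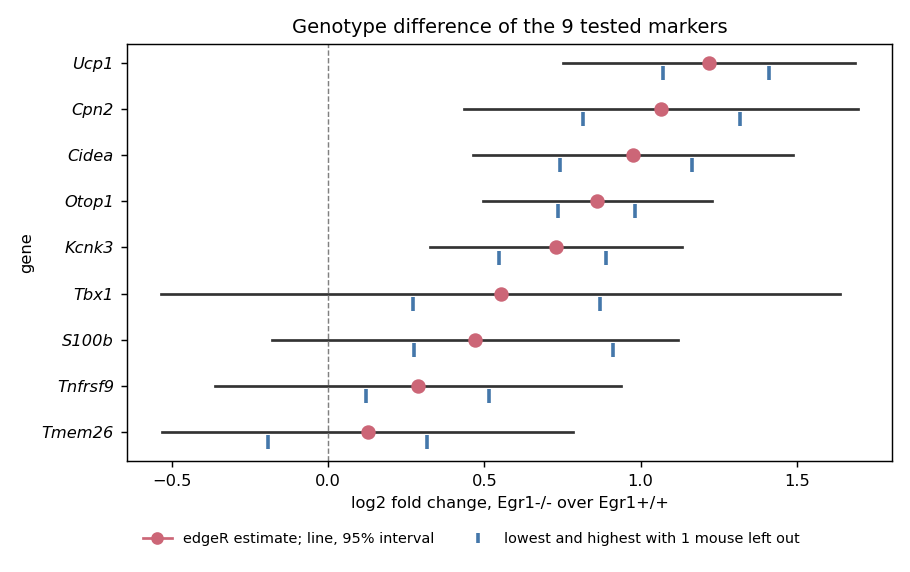
Log2 fold change of *Egr1*-/- over *Egr1*+/+ for the 9 tested markers (edgeR), with 95% intervals as lines and, as ticks, the lowest and highest estimate when 1 of the 6 mice is left out. The 5 genes (*Ucp1*, *Cpn2*, *Cidea*, *Otop1* and *Kcnk3*) have intervals above 0, and *Tmem26* is the gene whose ticks reach below 0.

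In the 5 genes past the unadjusted threshold the difference stayed positive whichever mouse was left out, though its size varied. All 5 were separated between the genotypes, so their direction could hardly turn. When each of the 6 mice was left out, the log2 fold change ran from 1.07 to 1.41 for *Ucp1*, 0.74 to 1.16 for *Cidea*, 0.55 to 0.89 for *Kcnk3*, 0.74 to 0.98 for *Otop1* and 0.81 to 1.32 for *Cpn2*. It ran from 0.28 to 0.91 for *S100b*, -0.19 to 0.32 for *Tmem26*, 0.12 to 0.52 for *Tnfrsf9* and 0.27 to 0.87 for *Tbx1*.

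Levels of the markers differed by several orders of magnitude, so their order in the pad was given per kb of exon. In *Egr1*+/+ mice *Ucp1* led with 208 CPM per kb, followed by *Cidea* with 100, *S100b* with 8.37, *Kcnk3* with 5.59, *Otop1* with 3.94, *Cpn2* with 1.77, *Tnfrsf9* with 0.971, *Tmem26* with 0.388, *Tbx1* with 0.113 and *Elovl3* with 0.0788. In this order the neighbours *S100b* and *Kcnk3*, *Cpn2* and *Tnfrsf9*, and *Tbx1* and *Elovl3* overlapped between mice, and the other neighbours did not. In *Egr1*-/- mice the first 8 kept their places and *Elovl3*, with 0.268, stood above *Tbx1*, with 0.166. Of the *Egr1*-/- neighbours, *S100b* and *Kcnk3*, *Kcnk3* and *Otop1*, *Tmem26* and *Elovl3*, and *Elovl3* and *Tbx1* overlapped. The gap from *Ucp1* and *Cidea* to all the others was present in every mouse.

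**Figure D4:**
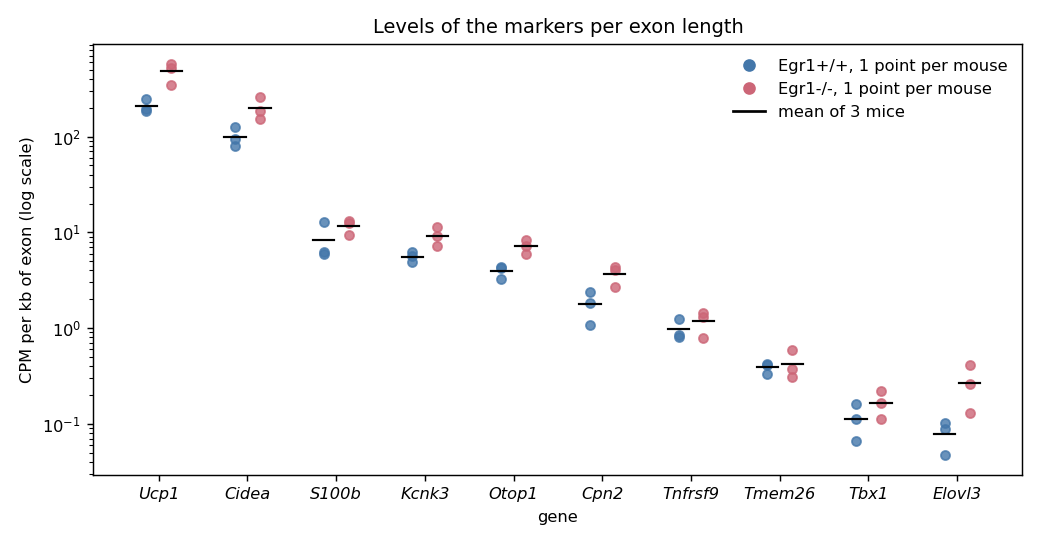
CPM per kb of exon of the 10 markers on a log axis, ordered by the mean in *Egr1*+/+ mice, with 1 point per mouse and a bar for the mean of 3. *Ucp1* and *Cidea* lie apart from the other 8 in both genotypes.

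Ratios of *Ucp1* to the other markers were compared mouse by mouse. *Ucp1* per *Cidea* was 2.84 to 3.44 in *Egr1*+/+ and 3.32 to 4.19 in *Egr1*-/- mice, which overlap (exact permutation p = 0.3). *Ucp1* per *Kcnk3* was 13.4 to 16.4 against 20.2 to 23.4, per *Otop1* 21.2 to 27.7 against 27.9 to 34.9, and per *S100b* 20.8 to 36.1 against 41.3 to 51.6, each without overlap (exact permutation p = 0.1). *Ucp1* per *Cpn2* was 46.8 ± 0.662 in *Egr1*-/- mice, inside the *Egr1*+/+ range of 36.4 to 64.2. Of the 9 ratios to other markers, 4 were separated, against 77.6% of the ratios of *Ucp1* to each other tested gene, so a separated ratio was less frequent among the markers than over all genes and does not set a marker apart. Set against the sum of 12 adipocyte genes instead of the whole library, the same 6 markers separated the genotypes and *S100b*, *Tmem26*, *Tnfrsf9* and *Tbx1* did not, where 12.8% of all genes tested were separated upward. *Ucp1* was then 3.12% ± 0.479 of the adipocyte sum in *Egr1*+/+ mice and 7.68% ± 1.35 in *Egr1*-/- mice (SD, n = 3 each).

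Several markers ranked the mice of a genotype alike. *Egr1*-/- replicate 2 had the lowest *Ucp1*, *Cidea*, *Kcnk3*, *Otop1*, *Cpn2* and *S100b* of its genotype, and it had the highest *Tnfrsf9* and *Tbx1*. *Egr1*+/+ replicate 1 had the highest *Ucp1*, *Cidea*, *Kcnk3*, *Cpn2* and *S100b* of its genotype. Over the 6 mice, Pearson's r with *Ucp1* on the log2 CPM scale was 0.97 for *Cidea*, *Otop1* and *Kcnk3*, 0.92 for *Cpn2*, 0.77 for *S100b*, 0.27 for *Tmem26*, 0.25 for *Tbx1* and 0.16 for *Tnfrsf9*. These are descriptions over 6 libraries that share the genotype difference. With genotype means removed r was 0.89 for *Cidea* and *Kcnk3*, 0.79 for *Otop1*, 0.76 for *S100b*, 0.74 for *Cpn2*, 0.38 for *Tmem26*, -0.46 for *Tnfrsf9* and -0.70 for *Tbx1*.

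Outside the markers, the 5 tested genes whose levels ran most like *Ucp1* over the 6 mice were *Slc25a51* (r = 0.999), which encodes the mitochondrial NAD transporter, *Sepsecs* (0.996), *Cisd3* (0.996), *Msrb2* (0.995) and *Ide* (0.991). *Slc25a51* had 69.9, 61.4 and 61.1 CPM in the *Egr1*+/+ mice and 101, 81.4 and 108 CPM in the *Egr1*-/- mice. It thus followed the order of the mice in *Ucp1*, at a smaller difference of 0.59 on the log2 scale. They were chosen as the highest of 17667 genes over 6 points, and the values of r describe these libraries only.

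The wider brown and beige programme, a list of 24 regulators and metabolic genes, showed the same direction as the heat-producing markers. Of its 22 tested genes 21 were higher in *Egr1*-/- mice, 17 at an unadjusted p under 0.05 (5.06% of all genes), 13 in DESeq2 (0.73%) and none past edgeR's adjusted threshold, and 16 were separated upward (8.15%). The median log2 difference was 0.71. *Gk*, glycerol kinase, had 31.5, 27.4 and 25.12 CPM in the *Egr1*+/+ mice and 57.3, 59.8 and 77.2 CPM in the *Egr1*-/- mice (log2 fold change 1.21, SE 0.149, edgeR adjusted p = 0.0748). *Acot11*, an acyl-CoA thioesterase of brown fat, was at 4.34 ± 0.870 and 11.8 ± 2.21 CPM (1.45, adjusted p = 0.0928), and *Dio2*, the deiodinase that activates thyroid hormone inside thermogenic cells, at 13.5 ± 5.04 and 50.9 ± 17.9 CPM (1.91, adjusted p = 0.151). The study named several of these genes from the same mice, so the list is not independent of its direction.

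The lists of depot and fat type genes did not share a direction. Of 8 tested classical brown depot genes 5 were higher and 3 lower, with a median of 0.03, 2 higher at an unadjusted p under 0.05 (5.06% of all genes) and 1 in DESeq2 (0.73%). *Oplah*, 5-oxoprolinase, had a log2 fold change of 0.62 (edgeR adjusted p = 0.167), *Pdk4*, which holds back glucose oxidation, 0.51 (0.432) and *Eva1a* -0.56 (0.651). Other proposed beige tags split, with 5 higher and 4 lower and a median of 0.20, of which 2 were higher (5.06% of all genes) and 3 lower (5.6%) at an unadjusted p under 0.05. *Slc36a2*, an amino acid transporter also known as PAT2, was at 60.4 ± 6.05 and 108 ± 18.7 CPM (0.84, adjusted p = 0.16), while *Klhl13* was at 22.04 ± 0.478 and 12.1 ± 2.08 CPM (-0.87, 0.146) and the homeobox gene *Shox2* differed by -0.65 (0.242). All 11 tested white fat genes were lower, with a median of -0.38, 6 at an unadjusted p under 0.05 (5.6% of all genes) and 3 in DESeq2 (1.34%). Among them were *Sncg* (-1.06, adjusted p = 0.171), leptin, *Lep* (-0.57, 0.256), and resistin, *Retn* (-0.44, 0.3). The 12 genes shared by all adipocytes were evenly split, 6 higher and 6 lower with a median of -0.03, and their sum was 10610 to 11231 CPM in *Egr1*+/+ and 9127 to 10928 CPM in *Egr1*-/- mice. *Dgat2*, a triglyceride-forming enzyme, differed by 0.77 (0.269), *Adipoq* by -0.41 (0.375) and hormone-sensitive lipase, *Lipe*, by 0.36 (0.378).

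**Figure D5:**
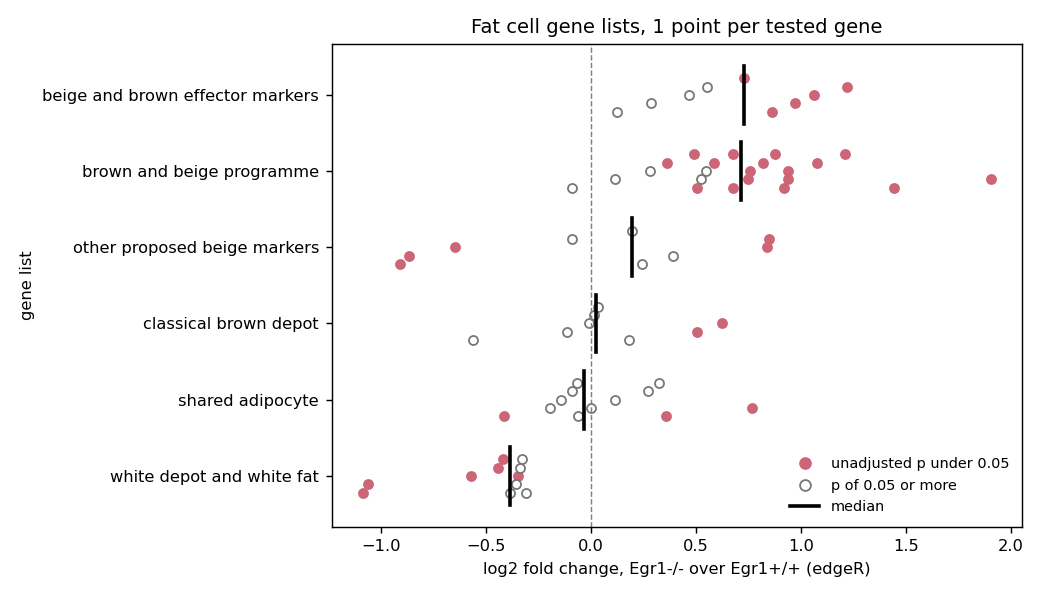
Log2 fold change of *Egr1*-/- over *Egr1*+/+ (edgeR), 1 point per tested gene, for the effector markers and 5 other fat cell lists, filled where the unadjusted p was under 0.05, with the median of each list as a bar. The medians run from 0.73 for the markers and 0.71 for the brown and beige programme to -0.38 for the white fat list.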

How the data were processed

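Inguinal SC-WAT RNA from 3 Egr1+/+ and 3 Egr1-/- mice was compared, with genotypes taken from the sample titles. The libraries were depleted of ribosomal RNA and strand-specific. The authors deposited whole-number counts of reads per gene, not normalized, and the submitters' processing notes name TopHat2, Bowtie2, featureCounts, DESeq2 and GRCm38.p4 (mm10). The strand setting of the counting is not given in the sources used here. Identifiers were named through GENCODE M21, which matched 46574 of 47069.

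The test was that of edgeR 4.0.16 in R 4.3.3 (TMM, filterByExpr, quasi-likelihood test, no covariate), with Benjamini-Hochberg adjustment over all 17667 genes tested and a threshold of 0.05. log2 CPM used a prior count of 2. The spread between mice was that of separate animals, some of which shared a litter, and no pair of libraries agreed within sampling noise. Alternatives were DESeq2 1.42.0, limma 3.58.1 (voom), other normalizations and filters, no mitochondrial genes, the replicate block and each mouse left out. The tests were tried on simulated data. The markers and lists were chosen with earlier results of these data known. Named genes were the markers with relatives and partners, Egr1, the 3 lowest p of each list and the 5 genes most like Ucp1. A gene that this rule names is not reported here. Motifs were searched in RefSeq promoters. Between 12572968 and 18449896 counts per mouse were not mitochondrial.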

Additional observations from a re-analysis of the deposited data

How the results depend on the processing

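Against 3 genes past edgeR's adjusted threshold, DESeq2 gave 366 without a fold-change prior and 367 with it. limma-voom gave 1, upper-quartile normalization 0, total-count normalization 79 and no filter on low counts 552 of 38261 tested. At an unadjusted p under 0.05, upper-quartile normalization gave 1902. Against 0 markers (5 unadjusted), DESeq2 gave 5 under each setting, no filter 5 and total-count normalization 1, *Ucp1*, with an adjusted p of 0.0385. That scaling moved the median log2 fold change of all genes to -0.15. The cause of these shifts was not tested. Leaving out a mouse gave 0 to 59 genes, 59 without *Egr1*-/- replicate 1 and 0 without any one of the other 5 (1190 to 2366 unadjusted over the 6 fits), and 0 markers. The 6 separated markers stayed 6 under 3 other normalizations and without mitochondrial genes, and were 6 to 8 with a mouse left out, 7 without *Egr1*+/+ replicate 1 and 8 without *Egr1*-/- replicate 1. With a mouse fewer, separation is easier to reach for any gene, so the higher counts are not a gain. The share of all genes separated was not computed for these settings. The log2 fold change of *Tmem26* turned to -0.00113 under total-count normalization and to -0.192 without *Egr1*-/- replicate 3 (0.316 at the most, without *Egr1*-/- replicate 1), the 2 changes of direction among the markers.

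When the replicate number entered as a block, 0 genes passed edgeR's adjusted threshold (1909 unadjusted) and 0 markers did (6 unadjusted). The deviations of same-numbered mice correlated at -0.0888, 0.106 and -0.126, and the highest value between genotypes was 0.233, for *Egr1*+/+ replicate 1 with *Egr1*-/- replicate 3. The numbers were therefore not taken as a pairing, and which mice were littermates is not known. At this depth *Elovl3* and *Tbx1*, with at most 27 counts per mouse, allow no fine comparison.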

Other observations

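Marker genes of other cells of the pad were measured beside the fat markers, and none of them passed the adjusted threshold in edgeR. All 9 tested mast cell and macrophage genes were lower in *Egr1*-/- mice, 8 at an unadjusted p under 0.05, where 5.6% of all genes were lower, and 3 in DESeq2, with a median log2 fold change of -0.70. *Mrc1*, the mannose receptor of resident macrophages, was at 143 ± 12.4 and 88.3 ± 19.2 CPM (SD, n = 3 each, edgeR adjusted p = 0.202), *Adgre1* at 22.6 ± 4.17 and 13.6 ± 2.47 CPM (0.22) and the mast cell protease *Mcpt4* at 12.9 ± 4.07 and 4.02 ± 2.67 CPM (0.227). Of 11 tested Schwann cell genes, *Prx* differed by -0.63 and *Mal* by -0.72 on the log2 scale (edgeR adjusted p = 0.261 and 0.284). T lymphocyte genes were higher in 11 of 12 cases with a median of 0.41, and none passed an unadjusted p of 0.05 or the DESeq2 threshold. Their lowest p values were those of *Trac*, *Zap70* and *Cd8b1*, with log2 fold changes of 0.80, 0.73 and 0.67.

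Endothelial genes were split, 6 higher and 2 lower of 8, with a median of 0.03 and sums of 418 to 518 and 393 to 576 CPM. Mammary and skin epithelium genes had 6 higher and 3 lower of 9 tested, with sums of 55.0 to 85.1 and 57.9 to 64.7 CPM. The relatives and partners of the markers had 10 higher and 12 lower of 22 tested, with a median of -0.01. DESeq2 placed 2 of them higher (0.73% of all genes) and 3 lower (1.34%) past its adjusted threshold. *S100a6* and *S100a10*, of the family of *S100b*, differed by -0.70 and -0.55 (edgeR adjusted p = 0.256 and 0.258). Of 10 mural genes 3 were higher and 7 lower, with a median of -0.15. *Cspg4*, a pericyte proteoglycan, differed by 0.65, *Kcnj8* by -0.52 and *Abcc9* by -0.21 (edgeR adjusted p = 0.227, 0.375 and 0.585).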
